A study of Rattus norvegicus with 6 samples.

Results

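The genes described here encode 9 receptor subunits of the activin, bone morphogenetic protein (BMP) and transforming growth factor beta (TGF-beta) family, together with Inhba, which encodes the beta-A subunit of activin A and of inhibin A. They were chosen by symbol, and all 10 were among the 17066 genes of the deposited RNA-seq table. Primary hippocampal neurons were taken from Sprague-Dawley rats on embryonic day 18, infected with lentivirus on day 5 or 6 in vitro, and lysed on day 14. There were 3 conditions with 2 libraries each: EGFP alone as the control, CCNY-WT-EGFP for overexpression of Cyclin Y, and CCNY-shRNA-EGFP for its knockdown. All libraries therefore came from virus-infected cultures that carried EGFP, and the knockdown rested on 1 shRNA label with no second shRNA or rescue among the libraries. The labels do not say that the replicates of a condition were separate cultures, so p-values measure only the spread between these libraries. The question was whether the level of Cyclin Y changed the transcripts of this receptor family.

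Ligands of this family are dimers that bring together type II receptors, whose kinases are constitutively active, with type I receptors, which are then phosphorylated and in turn phosphorylate SMAD proteins. Activins and TGF-betas act mainly through Smad2 and Smad3, BMPs mainly through Smad1, Smad5 and Smad9, and Smad4 is the partner of both branches. In hippocampal neurons, activin A is known as an activity-induced factor that acts on dendritic spines and excitatory synapses, and BMP and TGF-beta signals take part in neuronal differentiation and in the exchange between neurons and glia.

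Expression was given as FPKM, the number of fragments divided by transcript length and by the fragments mapped in the library, so that genes can be compared with each other. The table holds no read counts and the absolute depth is unknown, but the depth relative to EGFP replicate 1 could be estimated from the steps of low FPKM values and lay between 0.818 and 1.33. Cyclin Y itself followed the labels, with a mean Ccny FPKM of 42.7 for EGFP, 109 for CCNY-WT and 6.09 for CCNY-shRNA. Markers of neurons dominated, with a summed FPKM of 10 genes between 4602 and 4775 in all libraries. Of 10 microglia markers, 9 were under an FPKM of 1 throughout. Of 10 vascular and meningeal markers, 8 were under 1 throughout, and the endothelial markers Cldn5 and Cdh5 were listed at 0 in all 6 libraries. The other 2 were expressed, Lum with a mean FPKM of 52.8 and Dcn with 15.5. Astrocyte markers were present, with a summed FPKM of 8 genes from 537 to 577 in EGFP, from 565 to 569.8 in CCNY-WT, and of 469.8 and 542 in the CCNY-shRNA libraries.

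The 10 genes spanned more than 2 orders of magnitude. Bmpr2, Acvr1b and Acvr1 had the highest levels, with FPKM values between 35.6 and 48.2 over the 6 libraries, and each lay above at least 83.2% of all genes in the table. Bmpr2 exceeded Acvr1b in all 6 libraries although their ranges overlapped, whereas Acvr1b exceeded Acvr1 in only 3 of 6, so the order of that pair was not resolved. Acvr2a followed at 18.5 to 24.9, Bmpr1a at 8.62 to 12.6 and Tgfbr1 at 2.59 to 3.60, and these 3 ranges touched neither each other nor their neighbours. At the lower end, Acvr2b, Inhba, Tgfbr2 and Acvr1c had lowest and highest values of 0.891 and 1.87, 0.557 and 1.32, 0.266 and 1.15, and 0.102 and 0.706. The ranges of neighbours in this group overlapped, and their order held in 5 of 6 libraries for Acvr2b above Inhba, in 4 for Inhba above Tgfbr2 and in 6 for Tgfbr2 above Acvr1c. Summed over the 5 type I receptors the FPKM was between 84.3 and 97.1, and over the 4 type II receptors between 60.3 and 74.0. The ratio of the sums, type I to type II, ranged from 1.25 to 1.44. Its values in the CCNY-shRNA libraries, 1.38 and 1.40, lay within the range spanned by the other libraries.

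**Figure D1:**
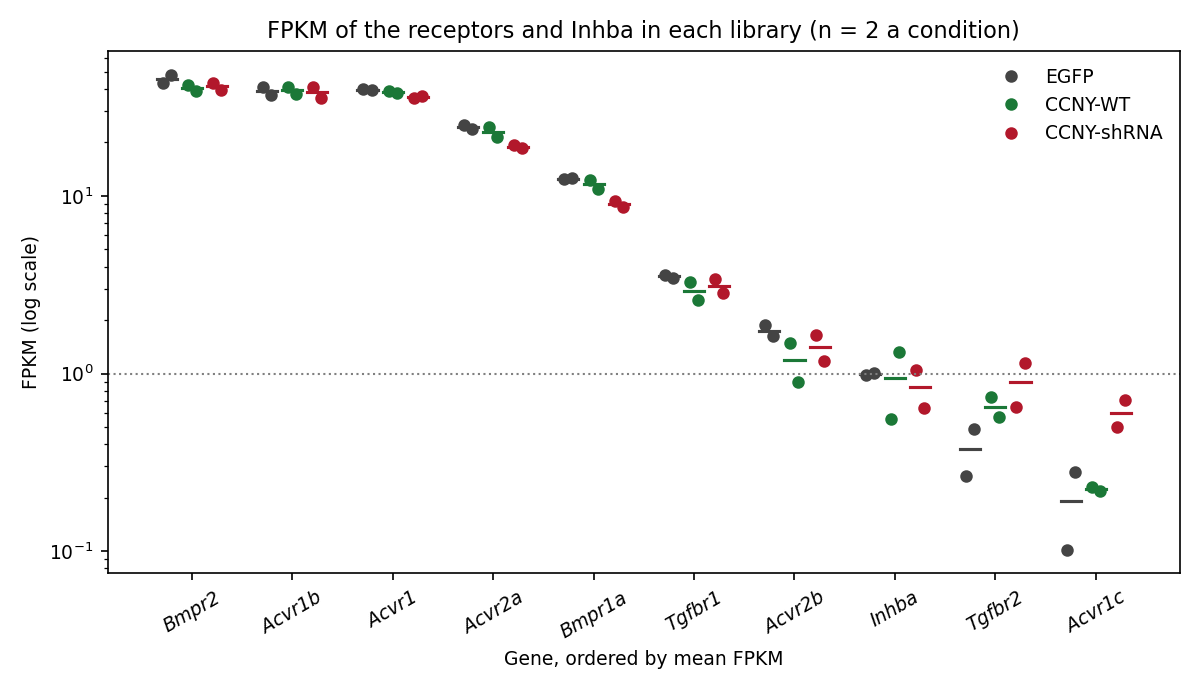
FPKM of each gene (log axis) in the 2 libraries of EGFP (grey), CCNY-WT (green) and CCNY-shRNA (red); points are libraries, horizontal bars are condition means, and the dotted line marks an FPKM of 1. The CCNY-shRNA points of Acvr2a and Bmpr1a lie below the points of the other conditions, and those of Acvr1c lie above them at values under 1.

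Among the activin receptors, Acvr2a, the type II receptor ActRIIA for activins and some BMPs, was lower in the knockdown. Its FPKM was 24.9 and 23.7 for EGFP, 24.3 and 21.5 for CCNY-WT, and 19.4 and 18.5 for CCNY-shRNA. Both CCNY-shRNA libraries lay below the other 4, while the ranges of EGFP and CCNY-WT overlapped. The mean was 24.3 ± 0.828 (SD, n = 2) in EGFP and 19.0 ± 0.670 in CCNY-shRNA, a difference of -22.0%. On the log2 scale the difference was -0.36 (standard error 0.0898, 95% interval -0.57 to -0.15), with an unadjusted p of 0.00418 and a limma adjusted p of 0.103 over all genes tested, so it did not pass the threshold of 0.05. With CCNY-WT the difference from EGFP was -0.09 (95% interval -0.30 to 0.12, limma adjusted p = 0.889). In bulk RNA of a mixed culture, fewer cells of a type that express a receptor and less of its RNA per cell cannot be told apart. The interneuron marker Gad2 differed by -0.41 in CCNY-shRNA (limma adjusted p = 0.0226), whereas Gad1, also an interneuron marker, differed by -0.03 (limma adjusted p = 0.813). The astrocyte markers Slc1a2 and Slc1a3, both glutamate transporters, were also lower, by log2 differences of -0.32 and -0.24 (limma adjusted p = 0.0768 and 0.183). Aqp4 and S100b, the 2 astrocyte markers above 0, each differed by 0.04. Of the 8 astrocyte markers tested in this comparison, 0 passed limma's adjusted threshold. At an unadjusted p under 0.05, 2 of them were lower, as 9.36% of all genes tested were. The median log2 difference of the 8 was -0.16. Of the 10 neuron markers, Gad2 alone passed, where 0.746% of all genes tested did, and the median was -0.02. The part of cell composition in the receptor values was not tested.

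Acvr2b, the second activin type II receptor, was expressed far below Acvr2a, which exceeded it between 11.8 and 24.1 times within a library. Its FPKM was 1.87 and 1.62 for EGFP, 1.49 and 0.891 for CCNY-WT, and 1.65 and 1.17 for CCNY-shRNA. The CCNY-WT values lay below those of EGFP, and the CCNY-shRNA values overlapped with both conditions. The log2 difference from EGFP was -0.51 in CCNY-WT (95% interval -1.15 to 0.13, limma adjusted p = 0.782) and -0.32 in CCNY-shRNA (95% interval -0.96 to 0.32, limma adjusted p = 0.575). The width of these intervals shows that a level 2-fold lower in CCNY-WT could not be told from no difference at this level of expression.

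Acvr1b, the type I receptor ALK4 through which activins signal, showed the smallest difference of all members in both conditions. Its FPKM was 41.2 and 36.8 for EGFP, 41.2 and 37.4 for CCNY-WT, and 41.2 and 35.7 for CCNY-shRNA. The 3 conditions overlapped almost completely, and replicate 1 was the higher library in each. The log2 difference from EGFP was -0.02 in CCNY-shRNA (95% interval -0.24 to 0.20) and 0.01 in CCNY-WT (95% interval -0.21 to 0.23), with limma adjusted p-values of 0.932 and 0.990. Inhba, the activin ligand subunit, lay at the floor of the analysis, with FPKM values of 0.984 and 1.01 for EGFP, 0.557 and 1.32 for CCNY-WT, and 1.05 and 0.639 for CCNY-shRNA. The replicates of CCNY-WT spanned all values of the other conditions, and the log2 differences of 0.19 and 0.03 in CCNY-WT and CCNY-shRNA (limma adjusted p = 0.908 and 0.971) arose where values under 1 were set to 1. Without that floor, on log2(FPKM + 0.1), they were -0.19 and -0.25.

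Acvr1c, the type I receptor ALK7, which binds Nodal and some activins and growth differentiation factors, was close to the limit of detection. Its FPKM was 0.102 and 0.280 for EGFP, 0.231 and 0.218 for CCNY-WT, and 0.498 and 0.706 for CCNY-shRNA. Both CCNY-shRNA values lay above the other 4, and the mean of 0.602 ± 0.147 (SD, n = 2) was 3.15 times that of EGFP, 0.191 ± 0.126. The smallest whole numbers of fragments that give these FPKM values were 1 and 3 for EGFP, 3 and 2 for CCNY-WT, and 4 and 8 for CCNY-shRNA, 21 in all. True numbers may be a common multiple of these. Because no library reached an FPKM of 1, Acvr1c was outside limma's test, and flooring to 1, as the study's methods do, leaves it with no difference. A two-sided exact permutation test between CCNY-shRNA and EGFP gave p = 0.333, the smallest p that 2 libraries against 2 allow. Among the 1741 genes outside the test with a mean FPKM of at least 0.1, 14.9% likewise had both CCNY-shRNA libraries above both EGFP libraries. The study chose Acvr1c as a gene raised by the knockdown on these same libraries, so the direction here is not independent evidence. With floored values it would not have met the study's cutoff, so the study's selection was not the same as the floored cutoff used here. The study also measured Acvr1c by qRT-PCR and reported it as regulated by Cyclin Y. Those measurements were not examined here.

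**Figure D2:**
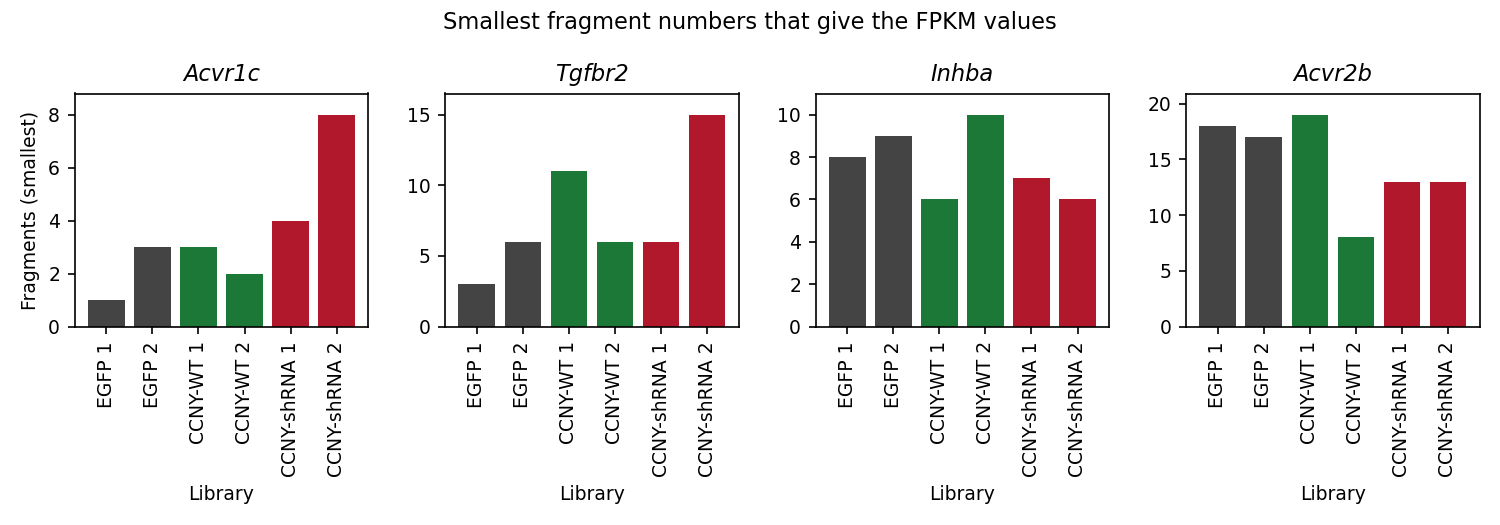
Smallest whole numbers of fragments that give the FPKM values of Acvr1c, Tgfbr2, Inhba and Acvr2b in each library (bars from 0; libraries differ in depth between 0.818 and 1.33 times EGFP replicate 1). Acvr1c rests on 1 to 8 fragments a library, Tgfbr2 on 3 to 15, Inhba on 6 to 10 and Acvr2b on 8 to 19.

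Of the BMP receptors, Bmpr1a, the type I receptor ALK3, showed the largest difference of the tested members in the knockdown. Its FPKM was 12.4 and 12.6 for EGFP, 12.3 and 10.9 for CCNY-WT, and 9.31 and 8.62 for CCNY-shRNA. Both CCNY-shRNA libraries lay below the other 4, and CCNY-WT lay just below EGFP without overlap. The mean was 12.5 ± 0.144 (SD, n = 2) in EGFP and 8.96 ± 0.490 in CCNY-shRNA, a difference of -28.4%. The log2 difference was -0.48 (standard error 0.114, 95% interval -0.75 to -0.22), with an unadjusted p of 0.00301, which ranked 335 among 10188 genes tested, and a limma adjusted p of 0.0915. For CCNY-WT the difference was -0.11 (95% interval -0.37 to 0.15, limma adjusted p = 0.892). As a share of the summed FPKM of the 5 type I receptors, Bmpr1a made up 12.3% to 13.6% in the EGFP and CCNY-WT libraries, and 10.3% and 10.2% in CCNY-shRNA. Acvr2a and Bmpr1a are both in a list of cytokines and cytokine receptors that the study drew from these libraries as lower in the knockdown. Their direction is therefore a description and not independent evidence.

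The bases before the annotated start of Bmpr1a are shown because it had the largest difference, beside those of Acvr1b, which had the smallest. They are RefSeq sequence of the build GRCr8, at chr16:9786862-9787111 on the minus strand and chr7:134164751-134164986 on the plus strand, whereas the reads were aligned to rn4. For Acvr1b 236 bases are printed, because the 14 bases next to the start lay inside the annotated gene. The counts given below include these 14 bases. Capitals mark GC boxes, GGGCGG on either strand.
Bmpr1a: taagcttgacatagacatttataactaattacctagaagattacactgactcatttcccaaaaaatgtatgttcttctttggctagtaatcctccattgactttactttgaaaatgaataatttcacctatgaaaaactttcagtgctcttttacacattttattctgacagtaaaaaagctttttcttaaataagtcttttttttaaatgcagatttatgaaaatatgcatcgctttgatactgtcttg
Acvr1b: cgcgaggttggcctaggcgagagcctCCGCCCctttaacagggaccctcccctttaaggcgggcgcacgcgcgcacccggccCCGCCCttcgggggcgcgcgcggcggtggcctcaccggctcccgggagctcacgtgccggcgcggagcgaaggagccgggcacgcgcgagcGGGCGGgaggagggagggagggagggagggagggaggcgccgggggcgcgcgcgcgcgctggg
Over the 250 bases before the start, Bmpr1a had a GC content of 28.4% and 1 CG dinucleotide, and Acvr1b 79.6% and 39, against medians of 51.2% and 5 over 33469 such windows. The Acvr1b window held 3 GC boxes and that of Bmpr1a 0, and 30.5% of all windows held at least 1. The SMAD motif CAGAC, searched on both strands, was in neither window and in 42.9% of all windows. Of the other members, 7 had a window in the table, with a GC content from 43.6% for Inhba to 76.8% for Acvr2b. The window of Acvr2a had 49.2%, and it lay wholly inside a longer annotated form of its gene, so it is not printed. The windows of Bmpr2, Tgfbr2 and Inhba also lay wholly inside their annotated genes. For Acvr2b, Acvr1c and Tgfbr1, 174, 98 and 50 of the 250 bases did. Acvr1 had no entry. These counts describe the windows only.

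Acvr1, the type I receptor ALK2, had the smallest standard error of the tested members. Its FPKM was 39.7 and 39.4 for EGFP, 38.7 and 37.9 for CCNY-WT, and 35.6 and 36.4 for CCNY-shRNA. The conditions did not overlap, with EGFP highest and CCNY-shRNA lowest, but the steps were small. The mean in CCNY-shRNA differed from EGFP by -8.95% (log2 difference -0.14, standard error 0.0605, 95% interval -0.28 to 0.0046, limma adjusted p = 0.285), and that in CCNY-WT by -3.17% (log2 difference -0.05, limma adjusted p = 0.911). As Bmpr1a differed more than Acvr1, the ratio of Acvr1 to Bmpr1a was 3.12 to 3.46 in the EGFP and CCNY-WT libraries and 3.83 and 4.23 in CCNY-shRNA. Bmpr2, the type II receptor for BMPs, had FPKM values of 43.2 and 48.2 for EGFP, 42.3 and 38.8 for CCNY-WT, and 43.4 and 39.5 for CCNY-shRNA. EGFP replicate 2 was the highest library, and the CCNY-shRNA libraries overlapped with EGFP. The log2 difference from EGFP was -0.14 in CCNY-shRNA (95% interval -0.33 to 0.06) and -0.17 in CCNY-WT (95% interval -0.37 to 0.02), with limma adjusted p-values of 0.415 and 0.761.

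The TGF-beta receptors were expressed at low levels. Tgfbr1, the type I receptor ALK5, had FPKM values of 3.60 and 3.47 for EGFP, 3.26 and 2.59 for CCNY-WT, and 3.40 and 2.84 for CCNY-shRNA. Both Cyclin Y conditions lay below EGFP and overlapped with each other. The log2 difference from EGFP was -0.19 in CCNY-shRNA (95% interval -0.63 to 0.26, limma adjusted p = 0.652) and -0.28 in CCNY-WT (95% interval -0.72 to 0.16, limma adjusted p = 0.813). Acvr1b, which feeds the same SMADs, exceeded Tgfbr1 between 10.6 and 14.4 times within a library. Tgfbr2, the type II receptor for TGF-beta, had FPKM values of 0.266 and 0.487 for EGFP, 0.735 and 0.569 for CCNY-WT, and 0.649 and 1.15 for CCNY-shRNA. Its EGFP libraries were the lowest of the 6, and the other conditions overlapped. The smallest fragment numbers were 3 and 6 for EGFP, 11 and 6 for CCNY-WT, and 6 and 15 for CCNY-shRNA. With 1 library at an FPKM of 1 or more, Tgfbr2 was not tested by limma, and the two-sided exact permutation test gave p = 0.333 for each condition against EGFP, the smallest it can give. Both CCNY-WT libraries above both EGFP libraries was also the pattern of 17.6% of the 1741 genes outside the test.

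Across the family, 8 of the 10 genes passed the filter, which asks that 2 or more libraries reach an FPKM of 1, and were tested with limma, and Acvr1c and Tgfbr2 were not. In CCNY-shRNA against EGFP, 0 of the 8 passed an adjusted p of 0.05, against 0.746% of all 10188 genes tested. At an unadjusted p under 0.05, 2 were lower (Acvr2a and Bmpr1a) and 0 higher, where 9.36% of all genes were lower. The same 2 genes differed by at least 0.33 on the log2 scale, the criterion of the study, which 7.59% of all genes met in this direction. Acvr2a missed this criterion without EGFP replicate 1 or CCNY-shRNA replicate 2, and Acvr2b met it without EGFP replicate 2 or CCNY-shRNA replicate 1. Of the 8 genes, 7 had a difference below 0, against 49.8% of all genes, and their median was -0.16 against 0 over all genes tested. Acvr1, Bmpr1a, Tgfbr1 and Acvr2a had both CCNY-shRNA libraries below both EGFP libraries, a pattern shown by 24.5% of all genes.

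In CCNY-WT against EGFP, 0 of the 8 passed limma's adjusted threshold, and Ccny was the only gene of the table that did, 0.00982% of those tested. At an unadjusted p under 0.05 there were also 0 members in either direction, where 3.00% of all genes were lower. Acvr2b alone was lower by at least 0.3, the study's criterion for this condition, against 3.76% of all genes, and without CCNY-WT replicate 2 it did not meet the criterion. Of the 8 genes, 6 had a difference below 0 (48.6% of all genes), with a median of -0.10, and 5 had both CCNY-WT libraries below both EGFP libraries (19.2% of all genes). The 2 comparisons share the EGFP libraries, so members below 0 in both are not 2 separate observations. For Acvr2a and Bmpr1a the log2 differences were -0.36 and -0.48 in CCNY-shRNA beside -0.09 and -0.11 in CCNY-WT. In CCNY-shRNA against CCNY-WT, 0 of the 8 passed limma's adjusted threshold, against 0.216% of all genes. The differences of this comparison leave EGFP out, but the spread behind its standard errors and p-values was estimated from all 6 libraries. Acvr2a (log2 difference -0.27, standard error 0.0898, limma adjusted p = 0.314) and Bmpr1a (-0.37, standard error 0.114, limma adjusted p = 0.277) were the 2 members at an unadjusted p under 0.05, and both were lower in the knockdown, as 7.12% of all genes were. They and Acvr1 had both CCNY-shRNA libraries below both CCNY-WT libraries, against 21.9% of all genes.

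**Figure D3:**
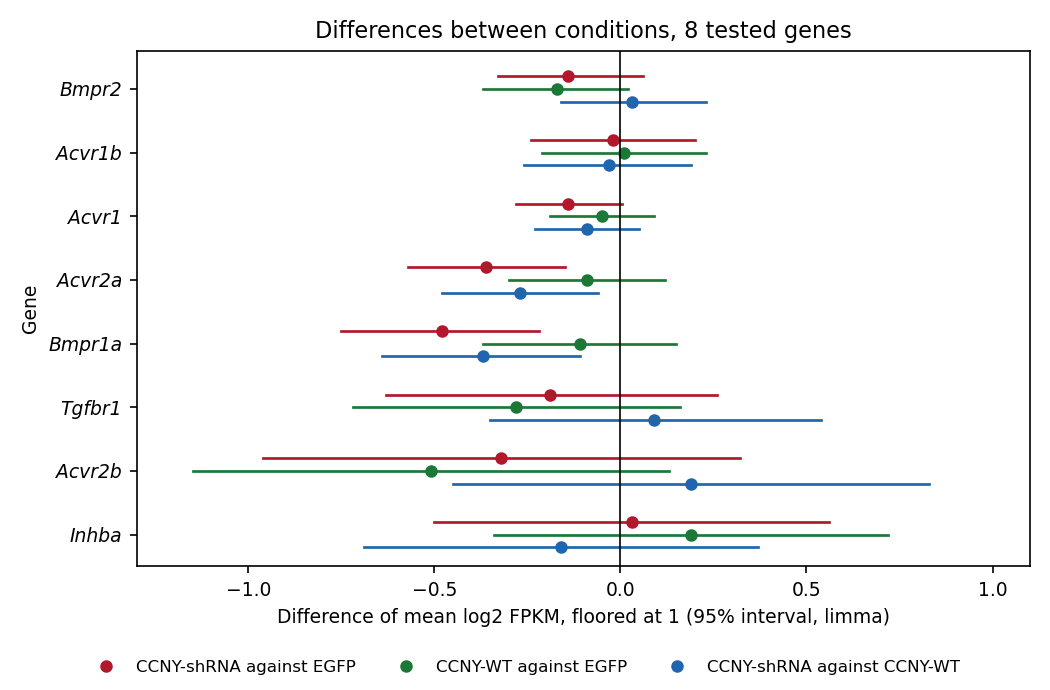
Differences of mean log2 FPKM, floored at 1, for the 8 tested genes in 3 comparisons: CCNY-shRNA against EGFP (red), CCNY-WT against EGFP (green) and CCNY-shRNA against CCNY-WT (blue). Points are limma estimates from 2 libraries a condition and lines their 95% intervals, which leave out 0 for Acvr2a and Bmpr1a in the comparisons of CCNY-shRNA; with the adjustment over 10188 genes 0 of these differences passed.

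By the root mean square difference of log2 values centred on each gene's mean over the 6 libraries, the genes most like Bmpr1a were Ptpdc1 (0.0318), Tada2b (0.0330), Nrxn3 (0.0340), Camk4 (0.0362) and Insig1 (0.0398). Those most like Acvr2a were Slc9a2 (0.0212), Pcdh17 (0.0310), Tada2b (0.0340), Tmie (0.0399) and Lrrc8b (0.0426). FPKM was floored at 1 here too, so the Tmie values of 0.509 and 0.963 in CCNY-shRNA entered as 1. The place of Tmie in this list therefore depends on the floor. Tada2b was in both lists, and its FPKM was 22.6 and 22.4 for EGFP, 22.3 and 20.3 for CCNY-WT, and 17.4 and 16.4 for CCNY-shRNA. Acvr2a and Bmpr1a were 0.0616 apart on this measure, so that Acvr2a was in place 24 among the genes nearest to Bmpr1a, and Bmpr1a in place 59 among those nearest to Acvr2a. With 6 libraries these likenesses are a description.

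The rest of the pathway was examined through lists of its other parts, in which 103 genes were in the table and 60 could be tested. Between CCNY-shRNA and EGFP 0 of the 60 passed limma's adjusted threshold, and 6 were higher and 6 lower at an unadjusted p under 0.05, where 9.20% and 9.36% of all genes tested were. These counts lay near the background. Between CCNY-WT and EGFP 0 passed, and 3 were higher and 0 lower by the unadjusted p (3.83% and 3.00% of all genes). Between CCNY-shRNA and CCNY-WT 0 passed as well, with 2 higher and 8 lower (5.05% and 7.12% of all genes).

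Of 29 ligand genes measured, 13 were tested, with a median log2 difference of -0.18 in CCNY-shRNA and -0.11 in CCNY-WT. Gdf1 (mean FPKM 74.6), Gdf11 (45.5), Inhbb, the activin beta-B subunit (13.5), and Tgfb2 (8.07) had the highest levels. Inhbb thus exceeded Inhba in every library, with values from 12.3 to 14.8. The lowest unadjusted p-values in CCNY-shRNA were those of Gdf15 (log2 difference -0.51, limma adjusted p = 0.150), Gdf11 (-0.18, 0.205), Tgfb2 (-0.28, 0.280) and Gdf10 (-0.35, 0.366). Gdf15, a stress-induced ligand, had an FPKM of 5.82 and 5.75 for EGFP, 6.35 and 7.25 for CCNY-WT, and 3.70 and 4.44 for CCNY-shRNA, so that the knockdown libraries were the lowest. Of 15 ligand genes every library was under 1, among them Tgfb1, with a highest value of 0.425.

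Among the secreted antagonists and latency proteins, 10 of 20 were tested. Median log2 differences were -0.15 in CCNY-shRNA and -0.0035 in CCNY-WT. Bmper and Twsg1, which bind BMPs outside the cell, were lower in CCNY-shRNA (log2 difference -0.62 and -0.34, limma adjusted p = 0.153 and 0.179), whereas the BMP antagonists Chrd and Chrdl1 were higher (0.50 and 0.49, limma adjusted p = 0.184 and 0.336). The FPKM of Chrd was 6.08 and 7.07 for EGFP, 6.22 and 5.76 for CCNY-WT, and 10.7 and 8.01 for CCNY-shRNA. The knockdown libraries were the highest of the 6. The most abundant genes of this list were Fstl1 (mean FPKM 24.2), Twsg1 (17.9), Ltbp4 (10.5) and Chrd (7.30). Fst, which encodes the activin-binding protein follistatin, was not tested, with a highest value of 1.19.

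Of the other receptors and co-receptors 3 of 7 were tested. Rgma, a BMP co-receptor, had FPKM values of 43.2 and 45.2 for EGFP, 53.9 and 48.4 for CCNY-WT, and 45.7 and 41.6 for CCNY-shRNA (log2 difference 0.21 in CCNY-WT, limma adjusted p = 0.725). Bambi, a decoy receptor without a kinase, and Tgfbr3, the TGF-beta co-receptor betaglycan, had mean FPKM values of 2.96 and 2.43 and log2 differences of -0.35 and 0.05 in CCNY-shRNA (limma adjusted p = 0.600 and 0.918). All 3 had both CCNY-WT libraries above both EGFP libraries, as did 20.3% of all genes tested, and Bmpr1b, the type I receptor ALK6, was not tested at a highest value of 1.29.

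Of 8 SMAD genes 6 were tested, with medians of -0.07 in CCNY-shRNA and -0.10 in CCNY-WT, and 0 reached an unadjusted p of 0.05 against EGFP. Smad2 (mean FPKM 17.6), Smad4 (16.1), Smad5 (10.1) and Smad1 (7.24) had the highest levels. Smad3 had FPKM values of 2.03 and 2.40 for EGFP, 2.83 and 2.66 for CCNY-WT, and 1.89 and 1.88 for CCNY-shRNA. The 3 conditions did not overlap, with CCNY-WT highest and CCNY-shRNA lowest. Taken pair by pair such separation was common. Of all genes tested, 20.3% had both CCNY-WT libraries above both EGFP libraries. Both CCNY-shRNA libraries lay below both EGFP libraries in 24.5%, and below both CCNY-WT libraries in 21.9%. The log2 difference of Smad3 from EGFP was -0.23 in CCNY-shRNA (limma adjusted p = 0.557). In CCNY-WT it was 0.31 (limma adjusted p = 0.801), which is past the study's criterion of 0.3. Directly between CCNY-shRNA and CCNY-WT it was -0.54 (unadjusted p 0.0198, limma adjusted p = 0.322). Smad1, Smad5 and Smad4 differed from EGFP by -0.16, -0.09 and -0.03 in CCNY-shRNA.

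Among the intracellular regulators 18 of 19 were tested, with medians of 0.06 and 0.02 in CCNY-shRNA and CCNY-WT. Fkbp1a, which encodes FKBP12, a protein that binds type I receptors and holds them inactive, had FPKM values of 404 and 384 for EGFP, 424 and 423 for CCNY-WT, and 476 and 534 for CCNY-shRNA. The CCNY-shRNA libraries were the highest, and the log2 difference of 0.36 had a limma adjusted p of 0.0664, which was the lowest of the pathway genes. Strap, whose product inhibits TGF-beta signals, differed by 0.28 (limma adjusted p = 0.0990), Nedd4l, a ubiquitin ligase, by -0.25 (0.131) and Map3k7, the kinase TAK1, by 0.23 (0.191). Stub1 (mean FPKM 124), Strap (105) and Usp9x (82.1) followed Fkbp1a in abundance.

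Of 20 genes known as targets of the pathway 10 were tested, with medians of -0.02 in CCNY-shRNA and 0.07 in CCNY-WT. Tagln, a smooth muscle and fibroblast gene that TGF-beta induces, had FPKM values of 1.76 and 3.93 for EGFP, 3.84 and 3.98 for CCNY-WT, and 6.68 and 4.39 for CCNY-shRNA (log2 difference 1.04 in CCNY-shRNA, limma adjusted p = 0.186). Its EGFP replicates were more than 2-fold apart, and replicate 2 lay between the CCNY-WT libraries. Id4, Cdkn1a and Ctgf differed by -0.32, -0.30 and 0.48 (limma adjusted p = 0.341, 0.379 and 0.438). The most abundant targets were Id2 (mean FPKM 40.2), Junb (35.0), Hey1 (11.9) and Pmepa1 (11.0), and their log2 differences in CCNY-shRNA were -0.03, 0.02, -0.06 and -0.23.

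**Figure D4:**
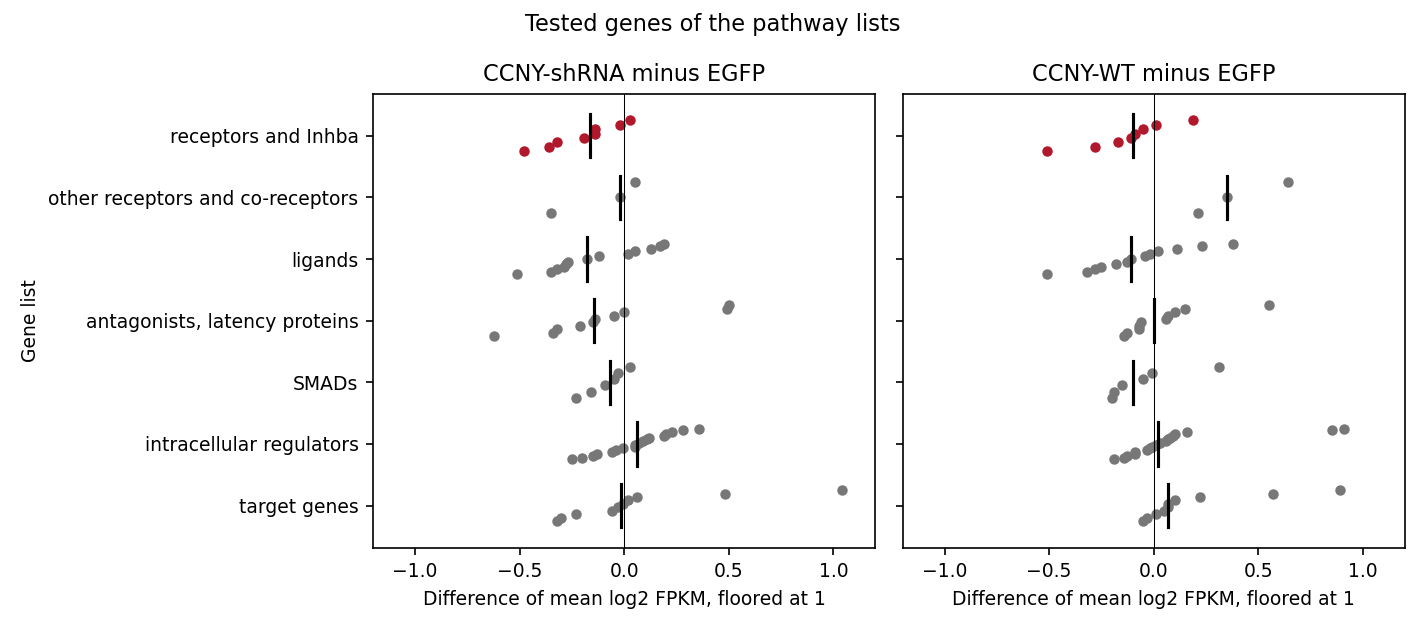
Differences of mean log2 FPKM, floored at 1, in CCNY-shRNA (left) and CCNY-WT (right) against EGFP for the tested genes of each list; each point is a gene, red for the receptors and Inhba, and vertical black bars are list medians. The medians of the receptors and Inhba are -0.16 and -0.10, and those of the target genes -0.02 and 0.07.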

How the data were processed

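RNA-seq was measured in 6 libraries, 2 per condition. The authors mapped reads to rn4 and deposited 1 FPKM value per gene and library; per the submitters' processing notes they used TopHat2 2.0, Bowtie2 2.1.0 and Cufflinks 2.2.1. Annotation, strand setting and any scaling between libraries are not given in the sources used here. As in the study's methods, FPKM was floored to 1 and log2-transformed. Tests used limma 3.58.1 in R 4.3.3 (lmFit, contrasts.fit, eBayes with a trend). All 6 libraries entered the fit, and 10188 genes that reached an FPKM of 1 in 2 or more of them were tested, with Benjamini-Hochberg adjustment over these genes. The model was tested on simulated data. Relative depth was taken from genes with a highest FPKM under 0.3, and fragment numbers are the smallest that fit within a tolerance of 0.03. Absolute depth is unknown. Tables and figures used Python 3.11.15, pandas 2.3.3, numpy 2.4.6 and matplotlib 3.10.9.

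The receptors, lists and tests were chosen with earlier results of these data known. Named were all members, Ccny, in each pathway list up to 4 genes with the lowest unadjusted p in CCNY-shRNA and up to 4 with the highest mean FPKM, and the 5 genes most like Acvr2a and Bmpr1a. Inhba among the ligands, Tgfb1, Fst, Bmpr1b and the cell markers were named after their values were seen. Of the listed symbols, Eng, Tdgf1, Rgmb, Neo1, Gdf5, Dand5, Ski, Skil, Ctdsp2, Acta2, Aldh1l1 and Glul were not analysed here. Alternatives covered the offset, filter, scaling, spread, a replicate block and leaving out each library.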

Additional observations from a re-analysis of the deposited data

How the results depend on the processing

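Under the 9 alternatives of offset, filter, scaling, spread and replicate block, and with each of the 6 libraries left out, 0 members passed the adjusted threshold in any comparison. The adjusted p in CCNY-shRNA ranged from 0.0943 to 0.380 for Acvr2a and from 0.0778 to 0.392 for Bmpr1a, with log2 differences from -0.39 to -0.32 and from -0.54 to -0.43. Same-numbered libraries deviated together only weakly (r of 0.0377 to 0.0538 over 10188 genes), so the number was not taken as a pairing, and the replicate block left 0 members called while 39 of all genes passed in CCNY-shRNA in place of 76. Over all genes that number was 108 with the filter on mean FPKM, 2 with no filter, 1 without a trend in the spread or with the 4 libraries of the comparison, and 1 to 7 with a library left out. Against CCNY-WT it was 22, and 32 on log2(FPKM + 1), 2 with no filter, 1 without a trend or with 4 libraries, and 1 to 8 with a library left out. In CCNY-WT against EGFP it was 1, and 3 on log2(FPKM + 1) or with the filter on mean FPKM. Quantile normalization called 1 gene of the other pathway lists in CCNY-shRNA, Fkbp1a, in place of 0.

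With a library left out, the members at least 0.33 lower in CCNY-shRNA numbered 1 to 3. Acvr2a missed the criterion without EGFP replicate 1 or CCNY-shRNA replicate 2, and Acvr2b met it without EGFP replicate 2 (-0.43) or CCNY-shRNA replicate 1 (-0.57). In CCNY-WT those at least 0.3 lower numbered 0 to 2, with Tgfbr1 added without EGFP replicate 2 or CCNY-WT replicate 1, and 0 without CCNY-WT replicate 2. Those higher numbered 0 to 1, with Inhba without CCNY-WT replicate 1. The log2 change of Ccny in CCNY-WT stayed between 1.33 and 1.36, with an adjusted p of up to 0.155 without a CCNY-WT library and 0.0518 without EGFP replicate 2. Of 357 values of members under an alternative, 337 kept their direction and 20 turned it, and 0 of these had passed the adjusted threshold. With a library left out, Acvr1b ranged from -0.13 to 0.08 in CCNY-shRNA, from -0.07 to 0.09 in CCNY-WT and from -0.14 to 0.07 between them, and Inhba from -0.0098 to 0.06, from -0.0098 to 0.39 and from -0.36 to 0.04. In CCNY-WT against EGFP, Acvr2a ranged from -0.18 to 6.7e-04. In CCNY-shRNA against CCNY-WT, Tgfbr1 ranged from -0.07 to 0.26, Acvr2b from -0.10 to 0.48 and Bmpr2 from -0.04 to 0.10. Inhba was also negative on log2(FPKM + 1), with -0.12 in CCNY-shRNA and -0.07 in CCNY-WT, and on log2(FPKM + 0.1), with -0.25 and -0.19. The cause of these changes was not tested. Genes under an FPKM of 1 rest on few fragments.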
